A study of Mus musculus with 16 samples.

Results

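Lungs that had received PBS in place of bleomycin were compared between the CAV1 blocker and the control blocker, which asks what the blocker did without injury. The comparison rested on 4 of the 16 arrays, 2 with each blocker, chosen by their sample titles. The mice were C57BL/6, aged 9 to 12 weeks. Such a blocker, called a target site blocker (TSB), is a synthetic oligonucleotide made to cover the place where a microRNA binds a chosen transcript, here Cav1. The CAV1 blocker was instilled into the trachea at 5 mg/kg, 4 days and 2 days ahead of PBS and again 4 days after it. The control blocker followed the same schedule, at a dose that the labels do not state. Every lung had therefore received an oligonucleotide and a liquid vehicle, and no untouched lung was in the comparison. The other 12 arrays carried the same blockers with bleomycin at 1 unit/kg, an agent that injures the lung and leaves it fibrotic, with 6 arrays for each blocker. The labels do not say whether samples came from separate animals, so each p-value covers sample-to-sample spread, which may be technical.

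Caveolin-1 is the main structural protein of caveolae, the flask-shaped pits of the plasma membrane that are abundant in lung endothelium and alveolar type 1 cells. A microRNA guides an Argonaute complex to a matching site in a transcript, where GW182 proteins, the CCR4-NOT deadenylase, the helicase DDX6 and the decapping enzyme DCP2 silence and degrade it. Blocking the site on 1 transcript shields that transcript from this path and leaves the microRNA free to act elsewhere. The labels do not name the microRNA. miR-199a-5p is known to target Cav1 in lung fibroblasts, and its mature form is shown because its seed is what such a blocker competes with. The capitals mark the seed, bases 2 to 8, and the sequence is from RefSeq (GRCm38.p6), where it is encoded at chr1:162217844-162217866 on the + strand and at chr9:21496537-21496559 on the - strand.
mmu-miR-199a-5p: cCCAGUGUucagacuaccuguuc

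The arrays reported log2 intensities of whole-lung RNA, in which fewer cells of a type and less RNA per cell cannot be told apart. The lung label fitted its markers: Scgb1a1, secreted by club cells, lay between 17.99 and 18.04 in the 4 PBS arrays, and Sftpd, surfactant protein D, between 17.01 and 17.29. All 4 had an RNA integrity number of 9. Both PBS control blocker arrays stood apart, in different ways. Between the 2 control blocker arrays the median absolute difference of a gene was 0.315 and 1470 genes differed by at least 1, whereas the 2 CAV1 blocker arrays differed by a median of 0.102, with 81 genes at least 1 apart. Control blocker array 1 lay at least 1 above the other 3 PBS arrays in 249 genes, 190 of them in the muscle and squamous class defined in the next paragraph. Control blocker array 2 lay as far above the other 3 in 613 genes, of which 3 were in that class. Array 1 also carried thymus transcripts: its mean over the 11 genes of the thymus list was 8.22, against 6.64 to 6.94 in the other 15 arrays. Rag1, the recombinase of developing lymphocytes, was at 9.87 in that array and at 5.88, 5.92 and 5.90 in the rest of the PBS arrays. The results below were refitted with each array left out and with the tissue score or the thymus list as a covariate, and the source of these differences was not tested.

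Genes of muscle and squamous tissue were set apart from the rest because these tissues were already known to differ between the PBS groups. The lists were chosen with that knowledge, and only the slope described here left the PBS arrays out. The class counts below therefore describe that difference and do not test it. A tissue score was the mean of the skeletal muscle list and the squamous keratin list. The class held the 103 tested genes of the skeletal muscle, cardiac muscle, squamous keratin and cornified envelope lists, and every gene whose level followed the score across the 12 bleomycin arrays at an adjusted p under 0.05. This slope picked out 347 genes, 334 with a positive slope (1.64% of genes tested) and 13 with a negative one (0.064%), and 62 of them were list genes. The class came to 388 of 20304 genes tested and left 19916 outside. Just inside the threshold lay Trim72 and Chrna3 (slope adjusted p = 0.0491 for both), and just outside lay Catsperz (0.0525) and Mrvi1 (0.0538).

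Muscle and squamous transcripts were lower in both CAV1 blocker arrays than in both control blocker arrays, with list medians of -1.99 for the cornified envelope, -1.73 for skeletal muscle and -0.71 for squamous keratins. The mean level of the 34 skeletal muscle genes was 10.89 and 9.13 in the control blocker arrays and 7.52 and 7.69 in the CAV1 blocker arrays. The squamous keratin list had means of 9.10 and 8.41 with the control blocker and of 6.89 and 6.98 with the CAV1 blocker. The cornified envelope list, the proteins of the hardened surface of squamous epithelium, had means of 10.90 and 10.00 against 7.76 and 7.80. Low levels also occurred in 3 of the 12 bleomycin arrays, 2 of them with the control blocker, though their squamous and cornified means stayed slightly above those of the PBS CAV1 blocker arrays. With bleomycin and the control blocker, arrays 2 and 6 had squamous keratin means of 7.09 and 7.02, and array 3 of bleomycin with the CAV1 blocker had 7.07.

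**Figure D1:**
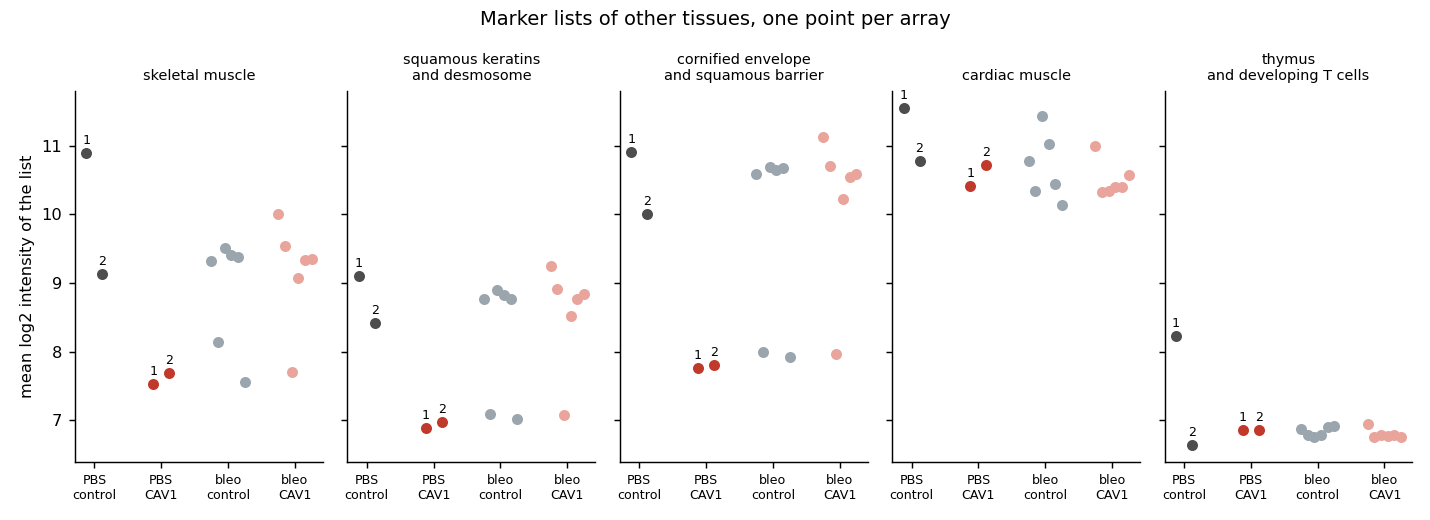
Mean log2 intensity (y axis) of 5 marker lists in each of the 16 arrays, with 1 point per array and the PBS arrays numbered. Both PBS CAV1 blocker arrays sit at the lower level of the muscle and squamous lists, with 3 bleomycin arrays, and the thymus list is high in PBS control blocker array 1, at 8.22.

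Krt13, a keratin of mucosal squamous epithelium, was at 14.50 and 14.01 with the control blocker and at 5.97 and 6.01 with the CAV1 blocker, a difference of -8.27 on the log2 scale. Lor, the loricrin of the cornified envelope, was at 15.76 and 13.97 against 6.86 and 7.09. Tnnc2, the calcium sensor of fast skeletal muscle, was at 15.77 and 12.72 against 6.59 and 6.94. In each of these genes the groups were far apart, yet none passed the test, at adjusted p-values of 0.367, 0.384 and 0.276. The standard error was 3.15 for Krt13, 3.28 for Lor and 2.31 for Tnnc2, from a spread taken over all 16 arrays. Mybpc2, the myosin-binding protein C of fast muscle, was at 10.58 and 9.22 against 7.46 and 7.77 and fell by 2.28 (SE 0.444, adjusted p = 0.0454). It was the 1 called gene of the 388 (0.258%). Its call ended when any 1 of 10 arrays was left out, with adjusted p-values up to 0.288 (without PBS CAV1 blocker array 1). The Mybpc2 difference after bleomycin was 0.01 (SE 0.257).

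The class as a whole had a median difference of -1.15, against 0.04 for the genes outside it and 0.04 for all genes tested. In 309 of the 388 genes (79.6%) both CAV1 blocker arrays lay below both control blocker arrays, and this held for 14.7% of all genes tested. In 4 (1.03%) they lay above, against 23.7% of all genes tested. At an unadjusted p under 0.05 it held 209 genes that were lower (53.9%), against 4.55% of all genes tested. Between the 12 bleomycin arrays the same class had a median blocker difference of 0.17, of the opposite sign. The difference was uneven within the class. Some genes were high in control blocker array 1 alone: Myh2, a fast myosin, was at 13.25 there and at 5.91 in control blocker array 2, with 5.72 and 5.99 in the CAV1 blocker arrays. The cardiac muscle list, whose genes are also those of heart and pulmonary vein muscle, moved less, with a median of -0.30 and 5 of 16 genes wholly lower with the CAV1 blocker. Ucp1 of brown fat lay outside the class, at 11.67 and 10.15 with the control blocker and 6.31 and 7.91 with the CAV1 blocker (difference -3.80, adjusted p = 0.384). It had the largest fall of the 15 fat cell genes, whose median was -0.30 with 3 wholly lower. The means of that list overlapped, at 11.37 and 10.78 with the control blocker against 10.07 and 10.81.

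Outside the class 62 genes passed the test, 56 of them higher with the CAV1 blocker and 6 lower. Over all 20304 genes tested the called share was 0.276% for rises and 0.0345% for falls, 63 genes or 0.31% in all. These calls rest on the spread taken over all 16 arrays. From the 4 PBS arrays alone limma called 3 genes, all lower and none of them among the 63, and with array weights 2 of the 63 remained. The rises ran from 0.47 to 1.80 on the log2 scale with a median of 0.87. In all 56 rises both CAV1 blocker arrays lay above both control blocker arrays, which was also true of 23.7% of all genes tested. Control blocker array 2, which stood apart in many genes, had the lower control value in 45 of the 56. The share of all genes with that order was not counted, so the 45 has no background and is not a trait of the rises. The genes that rose were ordinary in abundance, with a median level of 8.53 in the PBS arrays against 8.57 for all genes. They held RNA decay factors, histone H4 genes, chromatin regulators and parts of the cyclic GMP and cytoskeletal machinery. These groups were formed after the values were seen and carry no test.

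Ddx6, the helicase of processing bodies that joins translational repression to decapping, had the largest rise. It was at 10.02 and 9.61 in the control blocker arrays and at 11.66 and 11.58 in the CAV1 blocker arrays. The rise was 1.80 (SE 0.174, 95% confidence interval 1.43 to 2.18, adjusted p = 5.74e-04), or 3.49-fold, several times the spread between arrays of a group. Rc3h2, which encodes roquin-2, an RNA-binding protein that sends stem-loop transcripts to decay, was at 8.95 and 8.58 against 10.17 and 10.18 and rose by 1.41 (SE 0.143, adjusted p = 5.74e-04). Dcp2, the decapping enzyme, was at 6.21 and 6.08 against 7 and 7.28 and rose by 0.99 (SE 0.177, adjusted p = 0.0253). All 3 genes lay higher in both CAV1 blocker arrays. Most of their partners did not pass the test. Of 18 decay factors looked at after these values were seen, the other 15 were not called. They ran from -0.27 for Dcp1a to 0.65 for Cnot6l. Among them were the scaffold Cnot1 (0.04), the exonuclease Xrn1 (0.13), the decapping cofactor Edc3 (-0.17) and the deadenylase Cnot7 (0.40). The median of all 18 was 0.27, against 0.04 for all genes tested. Over all genes tested 0.276% were called higher. Because the 18 were chosen with the 3 called genes known, their count and median carry no test. Rc3h1, the close relative of Rc3h2, differed by 0.35 (adjusted p = 0.438). The Dcp2 call ended when either CAV1 blocker array of the PBS lungs (adjusted p = 0.0513 and 0.284) or the second control blocker array (0.079) was omitted, while those of Ddx6 and Rc3h2 passed whichever array was left out.

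Genes for histone H4, the core histone that pairs with H3 in the nucleosome, made up 5 of the 56 rises. Of the 9 H4 genes tested 5 were called higher, against 0.276% of all genes tested. The group was formed after these values were seen, so the count carries no test. H4c12 was at 13.10 and 12.70 with the control blocker and at 14.42 and 14.27 with the CAV1 blocker (rise of 1.45, SE 0.199, adjusted p = 0.00535). H4f16 was at 10.96 and 10.80 against 12.41 and 12.21 (1.43, SE 0.197, adjusted p = 0.00535). H4c14 was at 12.93 and 12.49 against 14.09 and 14 (1.34, SE 0.194, adjusted p = 0.00747). These 3 were higher by more than the gap between the arrays of either group, and passed whichever array was left out. H4c4, at 12.17 and 12.23 against 13.39 and 13.39, rose by 1.18, and H4c11, at 8.17 and 8.26 against 9.46 and 9.27, by 1.15. Neither kept its call without PBS CAV1 blocker array 1 (adjusted p = 0.0592 and 0.111), and H4c4 also lost it without PBS CAV1 blocker array 2 (0.0724). The other 4 of 9 H4 genes tested did not pass. H4c3 differed by 0.50, H4c8 by 0.41, H4c9 by -0.01 and H4c17 by -0.12. H4 genes encode nearly the same protein and their transcripts are alike, so how far each spot reads its own gene alone is uncertain. The other spot of H4c12 differed by 1.08 and that of H4c14 by 0.10. The latter was dim, with a mean level of 6.09 against array medians of 6.51 to 6.52.

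Short stretches of 4 of these promoters are shown because replication-dependent H4 genes share a promoter element, GGTCCG, and 4 of the 5 genes that rose were in the promoter table. The capitals mark that motif in RefSeq promoters of GRCm38.p6, each read on the strand of its gene, at chr13:21750568-21750597 (- strand) for H4c12, chr6:136804446-136804475 (-) for H4f16, chr13:23581509-23581538 (+) for H4c4 and chr13:21735004-21735033 (+) for H4c11. It begins 32, 32, 47 and 18 bases ahead of the annotated gene start.
H4c12: ggttctcatttcGGTCCGcccgccgcagta
H4f16: tgttttcaatcaGGTCCGctcccaggaaat
H4c4: ggttttcaaacaGGTCCGcattggtattat
H4c11: ggttctcatttcGGTCCGcccgctacagta
H4c12 and H4c11 carry nearly the same stretch. GGTCCG, searched on both strands in windows from 250 bases before to 50 after each gene start, was present in 8 of the 8 tested H4 genes that had a promoter in the table, including 4 that did not pass the test, and in 8.25% of all 32817 promoter windows. The match therefore did not separate the H4 genes that rose from those that did not pass.

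Chromatin regulators were also among the rises. Hira, the chaperone that places histone H3.3 outside of replication, was at 7.32 and 7.53 against 8.56 and 8.83 and rose by 1.27 (SE 0.184, adjusted p = 0.00747). Its partners in the same complex did not pass, with differences of 0.29 for Ubn1, 0.40 for Ubn2 and -0.44 for Cabin1. Pbrm1, the bromodomain subunit of the PBAF remodelling complex, was at 8.06 and 7.92 against 9.11 and 9.17 and rose by 1.15 (SE 0.131, adjusted p = 0.0013). The other 2 Pbrm1 spots differed by 0.11 and 0.67. Mllt10, a cofactor of the H3 lysine methyltransferase DOT1L, rose by 0.89 (SE 0.122, adjusted p = 0.00535). Irf2bp2, a transcriptional corepressor, was at 11.89 and 11.58 against 12.81 and 12.73 and rose by 1.04 (SE 0.121, adjusted p = 0.00136), whereas its other spot differed by 0.28. Without PBS CAV1 blocker array 2 Hira no longer passed (adjusted p = 0.0824).

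Among genes of signalling and the cell cortex, Dstyk, a dual-specificity kinase, was at 6.70 and 6.52 with the control blocker and at 7.99 and 8.09 with the CAV1 blocker, and rose by 1.42 (SE 0.178, adjusted p = 0.00286). Sptan1, the alpha spectrin of the membrane skeleton, was at 7.91 and 7.42 against 9.02 and 9.14 and rose by 1.42 (SE 0.222, adjusted p = 0.0112). Rasal2, a Ras GTPase-activating protein, was at 6.78 and 7.13 against 8.04 and 8.05 and rose by 1.09 (SE 0.153, adjusted p = 0.00614). Each of these was separated between the blockers by more than the gap within a group. A subunit of soluble guanylyl cyclase, Gucy1a2, was at 6.47 and 6.14 against 7.39 and 7.34 (1.06, adjusted p = 0.0451), and Prkg1, the cyclic GMP-dependent kinase downstream of it, was at 8.32 and 8.63 against 9.35 and 9.25 (0.83, adjusted p = 0.017). Cald1, a smooth muscle and cytoskeletal actin regulator, rose by 0.88 (adjusted p = 0.00861) and its other spot by 1.15. Itga1, a collagen-binding integrin chain, rose by 0.72 (adjusted p = 0.0183), with 0.26 in its other spot. The Sptan1 call ended without PBS CAV1 blocker array 2 (adjusted p = 0.102) and the Gucy1a2 call when any 1 of 11 arrays was omitted. Prkg1 lost its call when either PBS CAV1 blocker array was omitted (0.132 and 0.0752), Cald1 when the second was (0.084), and Itga1 when either of them (0.0681 and 0.198) or array 2 of the control blocker (0.0632) was.

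The remaining large rises had other roles. Abca8a, a transporter of the ABC family, was at 6.80 and 6.64 against 7.94 and 8.07 and rose by 1.28 (SE 0.218, adjusted p = 0.0184). Ptar1, a prenyltransferase subunit, was at 7.14 and 7.20 against 8.23 and 8.38 and rose by 1.13 (SE 0.123, adjusted p = 8.8e-04). Ecpas, an adaptor of the proteasome, rose by 1.03 (SE 0.138, adjusted p = 0.00535). The Abca8a call ended when either PBS array of the CAV1 blocker (adjusted p = 0.0765 and 0.187) or array 2 of the control blocker (0.0577) was omitted. Beyond the 15 largest, 41 rises lay between 0.47 and 1.04. They included Dhx9, an RNA helicase (0.75), Pik3r1, the regulatory subunit of PI 3-kinase (0.69), Epha3, an ephrin receptor (0.72), Wwp1, a ubiquitin ligase (0.79), and 3 gene models without a gene name. The Pik3r1 call ended when any 1 of 13 arrays was left out and that of Wwp1 with either of 2. For Dhx9 and Epha3 the omission of 1 array each ended the call. Of the 63 called genes, 41 had a single spot and 22 had more. In 6 of the 22 every other spot showed 50% or more of the difference, and in 12 none did. Some of those other spots were dim, among them those of H4c14, Pign and Zfp715, with mean levels of 6.09, 6.33 and 6.27. Others were not dim, among them those of Irf2bp2, Magt1 and Slc17a5, with mean levels of 11.46, 9.48 and 8.40. They differed by 0.28, 0.30 and 0.01. Whether some spots of a gene were copies of 1 probe was not checked.

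**Figure D2:**
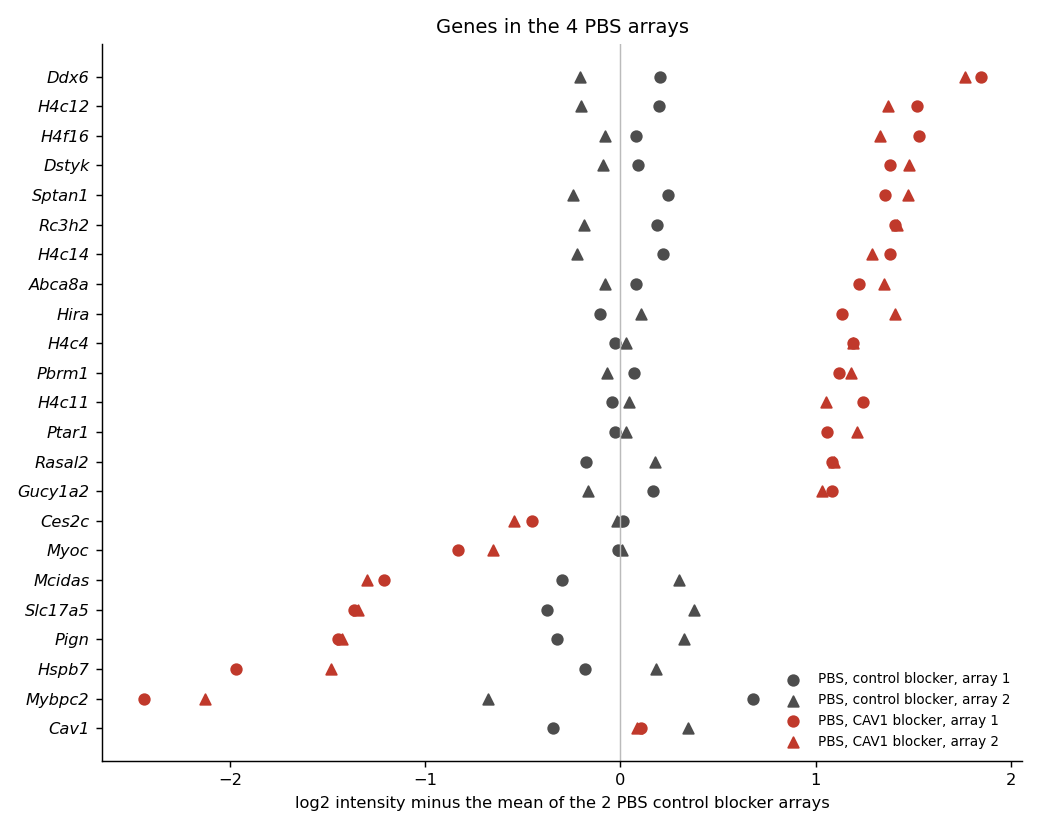
Log2 intensity of each PBS array minus the mean of the 2 control blocker arrays (x axis) for the 15 largest rises, the 6 falls outside the class, Mybpc2 and Cav1. Circles are array 1 and triangles array 2 of each blocker, grey for the control and red for the CAV1 blocker. The red points of the called genes lie clear of the grey ones, while those of Cav1 lie between them.

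The 6 falls outside the class were of 2 kinds. Hspb7, a small heat shock protein of heart and skeletal muscle, was at 8.85 and 9.21 with the control blocker and at 7.06 and 7.55 with the CAV1 blocker, and fell by 1.73 (SE 0.292, adjusted p = 0.0181). Its 9 other spots fell by values between 1.58 and 1.68. The mean levels of all its spots lay between 7.61 and 7.96, and whether they are copies of 1 probe was not checked. Myoc, a secreted glycoprotein also made in muscle, was at 6.88 and 6.90 against 6.06 and 6.24 and fell by 0.73 (SE 0.123, adjusted p = 0.018). Both are known from muscle, although their slopes on the tissue score did not pass (Hspb7, 0.26, adjusted p = 0.301; Myoc, 0.07, adjusted p = 0.534), and neither was called after bleomycin (-0.22 and -0.07). Whether they belong with the muscle transcripts was not tested further. Without PBS CAV1 blocker array 1 neither passed (adjusted p = 0.183 and 0.177). Hspb7 also failed without PBS control blocker array 2 (0.065), and Myoc without PBS CAV1 blocker array 2 (0.0514).

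The other falls were also called after bleomycin. Pign, of glycosylphosphatidylinositol anchor synthesis, was at 9.82 and 10.47 against 8.70 and 8.72 and fell by 1.43 (SE 0.276, adjusted p = 0.0445). Slc17a5, the lysosomal sialic acid exporter, was at 13.42 and 14.17 against 12.43 and 12.45 and fell by 1.35 (SE 0.268, adjusted p = 0.0465). The second spot of Pign differed by -0.13 and that of Slc17a5 by 0.01, so a single spot carried each call. That Pign spot was dim, with a mean level of 6.33 against array medians of 6.51 to 6.52, and could hardly show a fall. The second Slc17a5 spot had a mean level of 8.40. Mcidas, which starts the multiciliated cell program, was at 14 and 14.60 against 13.09 and 13.00 and fell by 1.26 (SE 0.247, adjusted p = 0.0465). It has 1 spot, and the 14 multiciliated genes had a median of 0.05 with no other call. Ces2c, a carboxylesterase, was at 8.95 and 8.92 against 8.48 and 8.39 and fell by 0.50 (SE 0.0991, adjusted p = 0.0465), with -0.54 to -0.51 in its 2 other spots. Each of these 4 calls ended when any of 11 or 12 of the 16 arrays was left out.

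The 12 bleomycin arrays shared no array with this comparison, although 1 fit supplied the spread for both, and they gave the same measure in other lungs. In those arrays 327 genes (1.61%) were called between the blockers, 243 higher (1.2% of genes tested) and 84 lower (0.414%). All 56 genes that rose after PBS had a positive difference after bleomycin, and 52 of them were called higher there. That was 92.9% of the PBS rises and 21.4% of the bleomycin rises. In 49 of the 56 all 6 CAV1 blocker arrays lay above all 6 control blocker arrays, as they did in 1.5% of all genes tested. The shared spread came mostly from the bleomycin arrays and favoured genes that vary little there. The 1.5% is therefore not a like background. Ddx6 after bleomycin ran from 9.72 to 10.18 (median 10.01) with the control blocker and from 11.16 to 11.58 (median 11.53) with the CAV1 blocker. Hira ran from 7.03 to 7.66 (median 7.46) against 8.60 to 9.07 (median 8.78). The median difference of the 56 was 0.87 after PBS and 0.62 after bleomycin. The 4 rises not called after bleomycin were C130026I21Rik (0.00), Lgals2, a galectin (0.20), Pcdhb16, a protocadherin (0.20), and Gtf2h1, a TFIIH subunit (0.44, adjusted p = 0.0738), named after their values were seen. Of the 6 falls, 4 were called lower after bleomycin, 66.7% of the PBS falls and 4.76% of the bleomycin falls.

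Read the other way, 173 of the 243 genes called higher after bleomycin (71.2%) had both PBS CAV1 blocker arrays above both control blocker arrays, against 23.7% of all genes tested. Of the 84 called lower, 52 (61.9%) had them below, against 14.7%. The test of the difference between the PBS and bleomycin blocker differences called 0 of 20304 genes (limma interaction contrast), with 1873 genes (9.22%) at an unadjusted p under 0.05. The smallest p-values belonged to Slfn9, of the Schlafen family, Plod2, a collagen lysyl hydroxylase, Rnf13, Adm and Cxcl5 on 1 side and to Myoc, Gsta4, Mybpc2, Hspb7 and Mylpf on the other, each with an adjusted p of 0.497. Slfn9 differed by 0.24 after PBS and by -0.37 after bleomycin, and Plod2 by 0.52 and -0.14. The count of 0 did not hold under each array left out: it was 3019 and 41 when PBS control blocker array 1 or 2 was omitted, and 14 when either PBS CAV1 blocker array was.

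**Figure D3:**
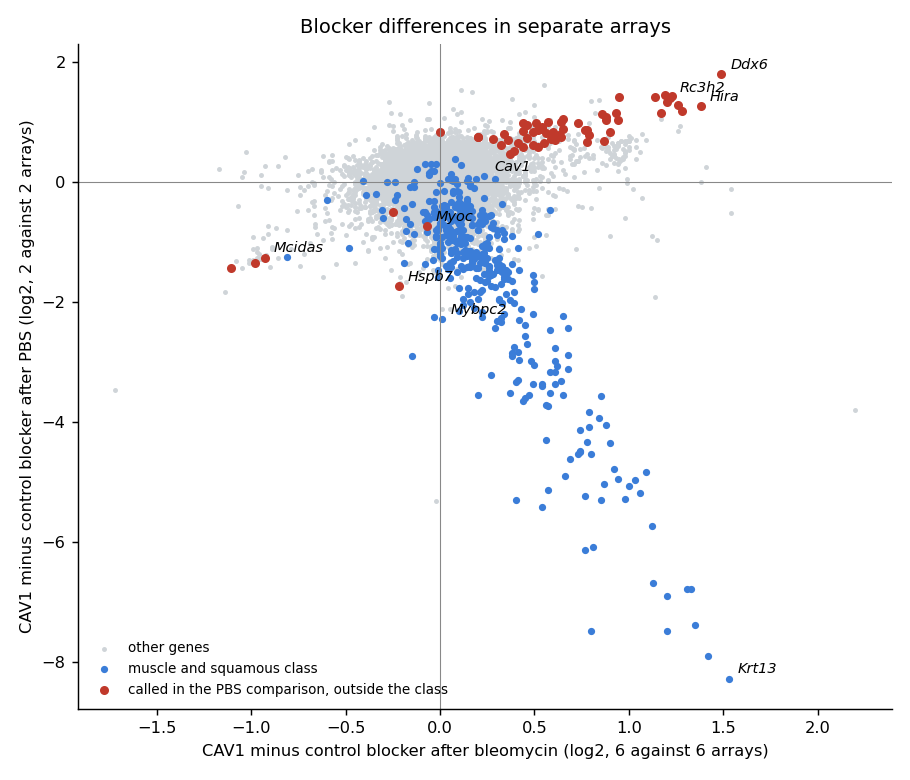
Log2 difference between the CAV1 and the control blocker after PBS (y axis, 2 against 2 arrays) and after bleomycin (x axis, 6 against 6 arrays) for each of 20304 genes. Called genes outside the class, in red, lie in the upper right and lower left, with Hspb7, Myoc and a few rises near 0 on the x axis, and the muscle and squamous class, in blue, reaches down to -8.27 at a positive bleomycin difference.

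Cav1 itself did not pass the test. It was at 10.69 and 11.38 in the control blocker arrays and at 11.14 and 11.12 in the CAV1 blocker arrays, which lay between them. The difference was 0.09 (SE 0.219, 95% confidence interval -0.38 to 0.56, adjusted p = 0.855). It turned on the control arrays, being -0.25 when array 1 of the control blocker was omitted and 0.44 when array 2 was (adjusted p = 0.443 and 0.796), so these arrays set no firm limit on a change. After bleomycin it ran from 10.47 to 10.98 (median 10.71) with the control blocker and from 10.80 to 11.39 (median 10.86) with the CAV1 blocker, a difference of 0.24 (SE 0.126, adjusted p = 0.642). The labels give no protein measurement. Of the 10 caveolae genes 0 were called by limma, with a median of 0.19 against 0.04 for all genes, and an unadjusted p under 0.05 in 3 that were higher and 1 that was lower. Over all genes tested these shares were 8.26% and 4.55%. Cav2, the partner of Cav1, was at 13.05 and 12.60 against 13.40 and 13.29 (0.53, adjusted p = 0.307), and the coat protein gene Cavin2 at 16.32 and 15.68 against 16.53 and 16.56 (0.54, adjusted p = 0.384). The muscle-specific Cavin4 went the other way, by -1.23 (adjusted p = 0.39).

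Transcripts of the miR-199a loci did not pass either. Dnm3os, which carries the chromosome 1 copy, was at 6.45 and 6.06 against 6.60 and 6.59 (0.34, SE 0.172, adjusted p = 0.407). Dnm2, which spans the chromosome 9 copy on the opposite strand, was at 13.60 and 13.41 against 13.86 and 13.77 (0.31, adjusted p = 0.256). Dnm3 differed by 0.10 (SE 0.457). Among the 14 genes of microRNA silencing Ddx6 was the 1 called, against 0.276% of all genes called higher, and the list median was 0.11. Ago2, the slicing Argonaute, was at 10.00 and 10.08 against 10.43 and 10.52 (0.44, adjusted p = 0.278), and Tnrc6a, a GW182 protein, differed by 0.51 (adjusted p = 0.413).

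Lung cell markers differed little beside the muscle and squamous genes, and outside the multiciliated list 0 of their genes were called at an adjusted p under 0.05. Natural killer cell genes had the highest median, 0.34, with 6 of 15 at an unadjusted p under 0.05 and all 6 higher. That compares with 8.26% of all genes higher at that threshold. Eomes, a transcription factor of these cells, was at 7.15 and 6.90 against 7.55 and 7.48 (0.50, adjusted p = 0.182), and the receptor gene Klra8 at 9.60 and 9.03 against 10.01 and 10.02 (0.70, adjusted p = 0.244). Mesothelial genes had a median of 0.32, with 4 of 9 higher at an unadjusted p under 0.05, among them Bnc1 (0.65) and Upk1b (0.55). In both lists the lower value of the control group was that of array 2 for each gene given. Recruited macrophage genes were mixed, with a median of -0.36, 8 of 16 wholly lower and 3 wholly higher, and 4 lower and 1 higher at an unadjusted p below 0.05. Over all genes tested 14.7% were wholly lower and 23.7% wholly higher. At that p the shares of all genes were 4.55% lower and 8.26% higher. Csf1r, their growth factor receptor, was at 14.60 and 14.07 against 14.64 and 14.69 (0.33). The largest differences in the list were those of Trem2 at 11.37 and 11.69 against 10.29 and 10.25 (-1.26, adjusted p = 0.386) and Gpnmb at 10.84 and 11.82 against 9.65 and 9.35 (-1.83, adjusted p = 0.352). Alveolar type 1, alveolar type 2, club and endothelial lists had medians of 0.12, -0.07, 0.00 and 0.16. Reg3g, an antimicrobial lectin of club cells, was at 13.18 and 13.29 against 12.02 and 12.69 (-0.88, adjusted p = 0.125).

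Lists of injury, matrix and defence responses held 0 called genes by limma, and their counts at an unadjusted p under 0.05 stand against 8.26% of all genes higher and 4.55% lower. The 25 extracellular matrix genes had a median of -0.08, and at an unadjusted p under 0.05 there was 1 on each side. The transforming growth factor beta list had a median of 0.25 and 4 of 19 higher at that threshold, led by Itgb6, an integrin chain that activates the growth factor, at 9.76 and 9.85 against 10.25 and 11 (0.82, adjusted p = 0.279). The interferon-stimulated and nucleic acid sensing lists, whose genes are known to respond to foreign nucleic acid, had medians of 0.14 and 0.00, with 2 of 25 and 1 of 17 higher at that threshold. Both groups had received an oligonucleotide, so a response shared by them would not show. Cell cycle genes had a median of -0.14 and 0 of 22 past that threshold in either direction. In the p53 list 4 of 15 were lower at an unadjusted p under 0.05, with Cdkn1a, a cell cycle inhibitor, at 11.28 and 12.52 against 10.29 and 10.60 (-1.46, adjusted p = 0.313) and Gdf15, a stress cytokine, at 9.30 and 8.98 against 8.37 and 8.04 (-0.94, adjusted p = 0.325). The glucocorticoid list had a median of -0.23, with 3 of 14 lower and 0 higher at that threshold. It included Per1, a clock gene, at 12.96 and 12.84 against 11.97 and 11.94 (-0.95, adjusted p = 0.367). Of the cytokine and chemokine list 4 of 27 were higher and 0 lower, and of the oxidative stress list 3 of 13 were lower and 0 higher. The immediate early list had 1 of 19 higher and 3 lower. The unfolded protein and heat shock lists had 1 of 12 and 1 of 10 higher and 0 lower.

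The tissue score was also entered as a covariate, a fit whose slope draws on the differences in score between arrays of the same group. In the PBS arrays the score was 9.99 and 8.77 with the control blocker and 7.21 and 7.33 with the CAV1 blocker, so score and blocker went together there. In that fit 6 genes were called higher (0.0296% of genes tested) and 0 lower, with 1330 genes (6.55%) at an unadjusted p under 0.05 in either direction. They were Ddx6 (1.83, adjusted p = 0.0107), Rc3h2 (1.31, 0.02), Irf2bp2 (1.14), Ptar1 (1.13), Pbrm1 (1.11) and Lce1l, a cornified envelope gene of the class (1.23). Lce1l changed sign, since it lay at 8.61 and 6.85 with the control blocker and at 5.89 and 6.01 with the CAV1 blocker, a difference of -1.78 without the covariate. The class median moved from -1.15 to 0.25 with the covariate. Most class genes were chosen for following this score, so their choice favoured such a move and it is no test. The sizes of the 56 rises were nearly kept, with a median of 0.84 against 0.87, while the standard errors grew and most calls ended. Those rises lay outside the class, where no slope on the score had passed. The smallest p-values among lower genes were those of Awat1, Wbscr25, Sik1, Vash2 and Cd200r2, none of which passed.

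Which genes passed depended on individual arrays. When PBS control blocker array 1 was omitted the count was 4034, and it contained all 63. When array 2 of that group was omitted it was 168, of which 31 were among the 63. It was 49 when PBS CAV1 blocker array 1 was omitted (21 of the 63) and 34 when array 2 was (16 of the 63). The array that then stood alone was assumed to vary like those of the other groups. Leaving out bleomycin control blocker array 1 or bleomycin CAV1 blocker array 5 gave 41 calls, and leaving out bleomycin control blocker array 3 gave 40. Genes called whichever of the 16 arrays was left out numbered 12, all outside the class and all higher. They were Ddx6, Dstyk, Ecpas, H4c12, H4c14, H4f16, Irf2bp2, Mllt10, Pbrm1, Ptar1, Rasal2 and Rc3h2.

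**Figure D4:**
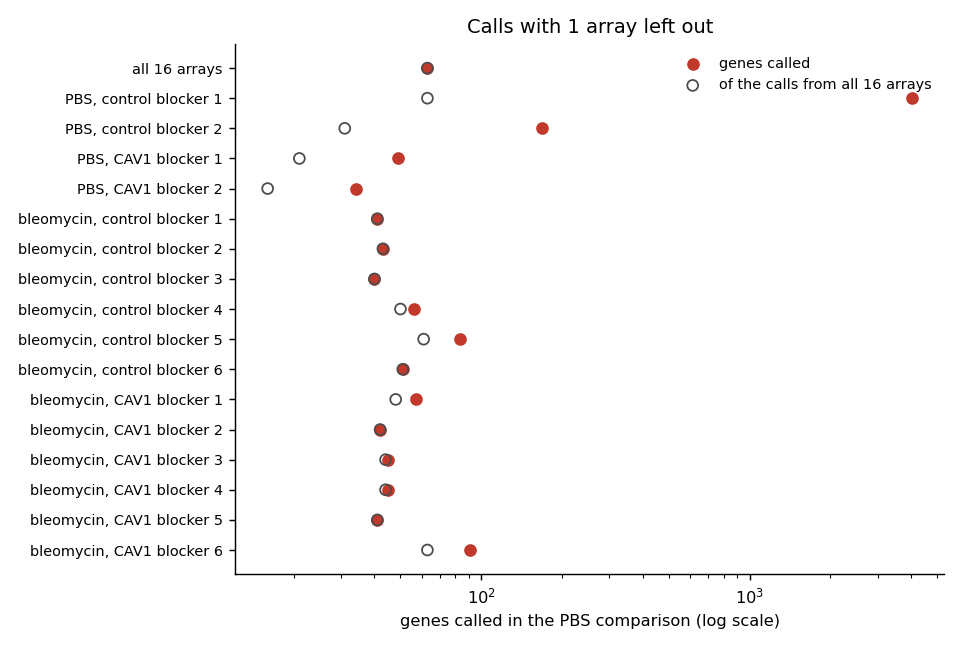
Number of genes called between the blockers after PBS (x axis, log scale) with all 16 arrays and with each array left out (y axis). Filled points are all calls and open points those among the 63 called with all 16 arrays. Leaving out PBS control blocker array 1 gives 4034 calls, and leaving out PBS CAV1 blocker array 2 gives 34.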

How the data were processed

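Expression was measured on 16 single-colour (Cy3) Agilent arrays of whole-lung RNA, 0.2 µg each. The deposited values are log2 intensities made with limma per the submitters' processing notes, and slide, scan date and background correction were not given in the sources used here. Array minima of 5.39 to 5.41, medians of 6.51 to 6.52 and maxima of 18.28 were alike. Of 62976 spots, 31465 carried 1 symbol, 31511 none and 0 several. RefSeq accessions (GRCm38.p6, names only) matched 29036, 2429 kept their symbol and 2933 changed. For each of 20863 genes, 6086 of them with more than 1 spot, the brightest spot was used. Genes above the 25th percentile of all spots in at least 2 arrays were tested. limma 3.58.1 (R 4.3.3) fitted 1 mean per group on all 16 arrays, with 12 residual degrees of freedom, two-sided and Benjamini-Hochberg adjusted over 20304 genes, called under 0.05. Differences are CAV1 minus control blocker on the log2 scale. The number of arrays limits the precision. The fit was tested on simulated data. Alternatives varied the filter, spot choice, scaling, moderation, weights, covariates, replicate block and arrays included. Members, lists and rules were chosen with earlier results of these data known. Named were Cav1, Dnm3os, Dnm3, the 15 largest named rises and all falls outside the class, all calls inside it, up to 4 members of each list described, and the largest or smallest-p genes of the covariate and interaction fits. Other genes were named after their values were seen. Replicate numbers were not shown to pair arrays (correlation of same-numbered deviations 0.0162).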

Additional observations from a re-analysis of the deposited data

Results flagged for a closer look

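In the bleomycin groups of 6 arrays some values lay far from the other 5 of their group (gap over range above Dixon's 95% critical value, which chance alone passes in about 1 of 20 groups). Bleomycin CAV1 blocker array 1 was low in the extracellular matrix list, at 10.77 against 11.31 to 11.60, and in the recruited macrophage list, at 11.08 against 11.92 to 12.29, and was highest in the thymus list, at 6.94. Bleomycin control blocker array 6 was low in the recruited macrophage list, at 12.14. Bleomycin CAV1 blocker array 3 was low in the squamous keratin list, at 7.07, and high in Dnm3, at 8.50. Bleomycin CAV1 blocker array 6 was high in Cav1, at 11.39, and lowest of its group in Ddx6, at 11.16, which was still above the highest control blocker value of 10.18. Groups of 2 PBS arrays are too small for this check.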

How the results depend on the processing

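The counts of 63 calls, and 62 outside the class, stayed within 1.5 times under other filters on dim genes, spot averaging, renewed quantile normalization, centring and trend or robust moderation, at 43 to 84 and 42 to 83. Spot averaging shared 51 genes with the 63 and trend moderation 42. They became 2 and 2 with array weights, 3 and 0 with the 4 PBS arrays alone (none of the 63 among them), and 23 and 22 with a minimum difference of 1. With the replicate number as a block they became 14 and 14, 13 of them among the 63, and 50 of the 63 lost their call. The numbers were not shown to pair the arrays. 3 settings were added after seeing the data. A covariate for the thymus list, which is high in PBS control blocker array 1 alone, gave 5016 and 4993 calls, with all 63 kept, and 3668 interaction calls. A percentile taken over gene values gave 67 calls, and leaving out bleomycin CAV1 blocker array 1 with bleomycin control blocker array 5 gave 82. Over single arrays left out, the ranges were 34 to 4034 calls, 34 to 4025 outside the class, 0 to 3019 for the interaction and 3 to 362 with the tissue score covariate. The last count, 6, became 362 and 61 when PBS control blocker array 1 or 2 was omitted, 25 and 15 for array 1 or 2 of the PBS CAV1 blocker, 14 for bleomycin CAV1 blocker array 6, and 3 for array 2 or 6 of bleomycin with the control blocker. Outside the class 145 genes passed when PBS control blocker array 2 was omitted. With both list means as covariates 75 genes passed in all. Lce1l reversed to 1.23 with the tissue score and 1.17 with both means. The cause of these changes was not tested.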

Other observations

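Fcrl1, a B cell receptor-like gene, was at 18.16 in PBS control blocker array 1, near the array maximum of 18.28, and at 6.78, 7.19 and 7.12 in the other PBS arrays (difference -5.31, adjusted p = 0.372). Control blocker array 2 was high in genes of unlike roles, among them Syt10, a synaptotagmin, at 13.08 against 9.34, 8.60 and 6.91, Elane, neutrophil elastase, at 11.45 against 8.45, 8.34 and 8.03, and Rbp3, a retinoid carrier of the retina, at 14.34 against 10.44, 10.86 and 10.59. The clock list of 18 tested genes had a median of -0.13, and 0 were called. At an unadjusted p under 0.05 it held 2 higher and 2 lower, against 8.26% and 4.55% of all genes tested. Of the clock genes, Arntl was at 8.56 and 8.23 with the control blocker and at 8.93 and 9.56 with the CAV1 blocker (0.85, adjusted p = 0.295). Bhlhe41, a repressor in the same loop, was at 7.43 and 8.38 against 7.12 and 6.66 (-1.01, adjusted p = 0.282). These genes were chosen after their values were seen.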
